A study of Mus musculus with 12 samples.

Results

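The 10 genes described here carry the circadian clock's signal to the rest of the liver cell: Dbp, Tef, Hlf, Nfil3, Bhlhe40, Bhlhe41, Ciart, Wee1, Rgs16 and Usp2. They were taken by symbol from the 56441 genes of a table of raw counts, and all 10 were found and passed the filter on low counts, as did 15228 genes in all. The study put fumarate hydratase (FH, mouse gene Fh1), the mitochondrial enzyme that turns fumarate into malate, into mouse livers with AAV8, and sequenced liver mRNA from 12 libraries in 4 groups of 3. The ob/ob FH group held leptin-deficient ob/ob mice given AAV8-FH and kept on a high-fat diet, and the ob/ob vector group held ob/ob mice given AAV8-vector on the same diet. The fasted FH group held C57BL/6 mice given AAV8-FH and the fasted vector group C57BL/6 mice given AAV8-vector, both without food for 24 h before collection. All mice were injected at 6 to 8 weeks of age and collected about 1 month later. All 4 groups therefore carried an AAV8, strain and feeding state change together between the models, and the labels give no promoter, virus dose, sex or hour of collection. The labels number the 3 libraries of each group without tying a number to an animal. A p-value here therefore speaks only of how libraries varied within groups, and that variation may be technical. In the fit of all 12 libraries the 4 groups share 1 estimate of each gene's spread. A p-value or SE from it thus also carries the spread of groups outside its comparison.

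The liver clock is a loop in which BMAL1 (gene Arntl) and CLOCK switch on E-box genes, among them the Per and Cry genes whose proteins then shut BMAL1 and CLOCK off, while REV-ERB proteins (Nr1d1, Nr1d2) repress and ROR proteins activate Arntl. Output genes pass that rhythm on. The PAR-bZIP activators DBP, TEF and HLF bind D-box sites that the repressor NFIL3 (E4BP4) also binds, and in liver they are known for the daily course of drug-metabolism enzymes and of their partner proteins. In bulk liver a level can differ through the hour of the cycle, through its height or through the mix of cells, and fewer cells of a type and less RNA per cell cannot be told apart.

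Promoter windows were read for 8 of the 10 genes from RefSeq on build GRCm38.p6, 250 bases before to 50 bases after the gene start. The counts were made on GRCm39, so no position was carried between the builds. Windows are shown 5′ to 3′ in the direction of the gene for the genes whose windows held a searched clock motif, and for Dbp, which had the largest log2 fold change with FH of the PAR-bZIP genes in fasted livers. Capitals mark the E-box CACGTG, the site of BMAL1 and CLOCK, and in Nfil3 the core AGGTCA of the ROR and REV-ERB site, read there on the opposite strand as TGACCT.
Ciart: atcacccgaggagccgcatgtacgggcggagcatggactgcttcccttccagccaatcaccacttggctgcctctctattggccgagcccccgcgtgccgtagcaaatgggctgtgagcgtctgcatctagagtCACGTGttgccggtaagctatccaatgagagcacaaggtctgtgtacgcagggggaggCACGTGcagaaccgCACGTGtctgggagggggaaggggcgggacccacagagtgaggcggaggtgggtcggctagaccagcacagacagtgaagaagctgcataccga
Bhlhe41: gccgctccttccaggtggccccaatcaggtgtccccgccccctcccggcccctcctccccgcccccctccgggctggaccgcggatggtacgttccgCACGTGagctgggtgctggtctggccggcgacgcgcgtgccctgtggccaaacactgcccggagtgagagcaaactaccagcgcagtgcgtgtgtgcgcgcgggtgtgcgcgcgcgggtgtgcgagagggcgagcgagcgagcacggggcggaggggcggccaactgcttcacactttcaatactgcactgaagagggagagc
Tef, upstream start: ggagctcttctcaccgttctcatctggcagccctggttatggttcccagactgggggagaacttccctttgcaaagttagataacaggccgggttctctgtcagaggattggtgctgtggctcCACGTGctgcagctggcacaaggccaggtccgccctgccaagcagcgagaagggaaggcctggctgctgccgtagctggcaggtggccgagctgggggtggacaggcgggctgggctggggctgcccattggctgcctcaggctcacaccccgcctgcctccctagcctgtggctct
Tef, downstream start: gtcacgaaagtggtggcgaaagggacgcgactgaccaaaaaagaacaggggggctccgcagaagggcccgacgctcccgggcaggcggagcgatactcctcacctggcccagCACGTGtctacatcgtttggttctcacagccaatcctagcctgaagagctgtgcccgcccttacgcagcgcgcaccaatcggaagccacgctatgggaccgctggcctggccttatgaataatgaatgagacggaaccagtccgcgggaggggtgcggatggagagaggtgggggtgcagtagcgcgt
Nfil3: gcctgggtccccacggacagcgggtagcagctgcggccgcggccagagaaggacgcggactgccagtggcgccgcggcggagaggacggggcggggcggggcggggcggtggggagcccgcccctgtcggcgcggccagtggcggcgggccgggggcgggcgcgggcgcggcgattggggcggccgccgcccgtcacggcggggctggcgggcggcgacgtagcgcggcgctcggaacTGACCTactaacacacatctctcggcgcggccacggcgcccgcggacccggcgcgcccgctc
Dbp: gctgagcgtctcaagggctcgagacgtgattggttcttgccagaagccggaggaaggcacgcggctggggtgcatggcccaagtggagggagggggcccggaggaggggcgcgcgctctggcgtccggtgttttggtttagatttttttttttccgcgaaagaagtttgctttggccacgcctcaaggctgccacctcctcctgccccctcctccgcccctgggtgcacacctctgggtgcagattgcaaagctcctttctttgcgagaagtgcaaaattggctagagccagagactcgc
The Ciart window, at chr3:95882179-95882478 on the minus strand, held 3 E-boxes, which begin 116, 58 and 44 bases before the start. The Bhlhe41 window (chr6:145865371-145865670, minus strand) held 1 E-box and the Nfil3 window (chr13:52980990-52981289, minus strand) 1 ROR core. Both Tef windows, for separate annotated starts (chr15:81802423-81802722 and chr15:81811164-81811463, plus strand), held 1 E-box each. The Dbp window (chr7:45704997-45705296, plus strand) held none of the motifs, nor did those of Hlf, Rgs16 and Usp2. On either strand CACGTG occurred in 7.15% of the 32851 windows of the table, AGGTCA in 16.3%, CACGTT in 4.68%, TTATGTAA in 0.938% and TTACGTAA in 0.119%. CACGTG reads the same on both strands, and none of the matches overlapped another. The last 3 motifs, an E-box variant and D-box forms, were in no member's window. A match describes the letters and is no evidence of binding.

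Total counts were 21632289 to 23506015 in ob/ob FH, 12573267 to 14496559 in ob/ob vector, 19107050 to 25873379 in fasted FH and 12231828 to 14884323 in fasted vector, so FH libraries were deeper in both models. Fh1 averaged 679 ± 106 CPM (counts relative to the library total, scaled by TMM throughout) in ob/ob FH and 122 ± 17.9 CPM in ob/ob vector, and 813 ± 104 CPM in fasted FH and 319 ± 85.5 CPM in fasted vector (SD, n = 3 each). The ob/ob FH libraries held 2242 to 4992 Xist counts and 0 counts of 4 Y-linked genes, against 1 to 24 Xist counts and 2304 to 5181 Y-linked counts in the other 3 groups, so FH and sex markers cannot be told apart in ob/ob livers. RNA make-up also differed between FH and vector libraries: the nuclear RNA Malat1 ran at 12.7 to 33.2 CPM in ob/ob FH and 358 to 456 CPM in ob/ob vector, and at 48.9 to 81.0 CPM in fasted FH and 456 to 558 CPM in fasted vector. TMM factors were 0.824 to 0.907 in ob/ob FH and 1.32 to 1.37 in ob/ob vector. They were 0.721 to 0.740 in fasted FH and 1.12 to 1.23 in fasted vector. In both models FH cannot be told apart from this difference in depth and RNA make-up. Hepatocyte markers were high in all groups, with summed levels of 128541 to 156470 CPM in ob/ob FH, 43008 to 54307 in ob/ob vector, 143398 to 156062 in fasted FH and 44075 to 64310 in fasted vector. Markers of endothelium, macrophages, stellate cells, cholangiocytes and lymphocytes were present too, none at 0 in any group, so whole liver is described although the labels also say hepatocyte.

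**Figure D1:**
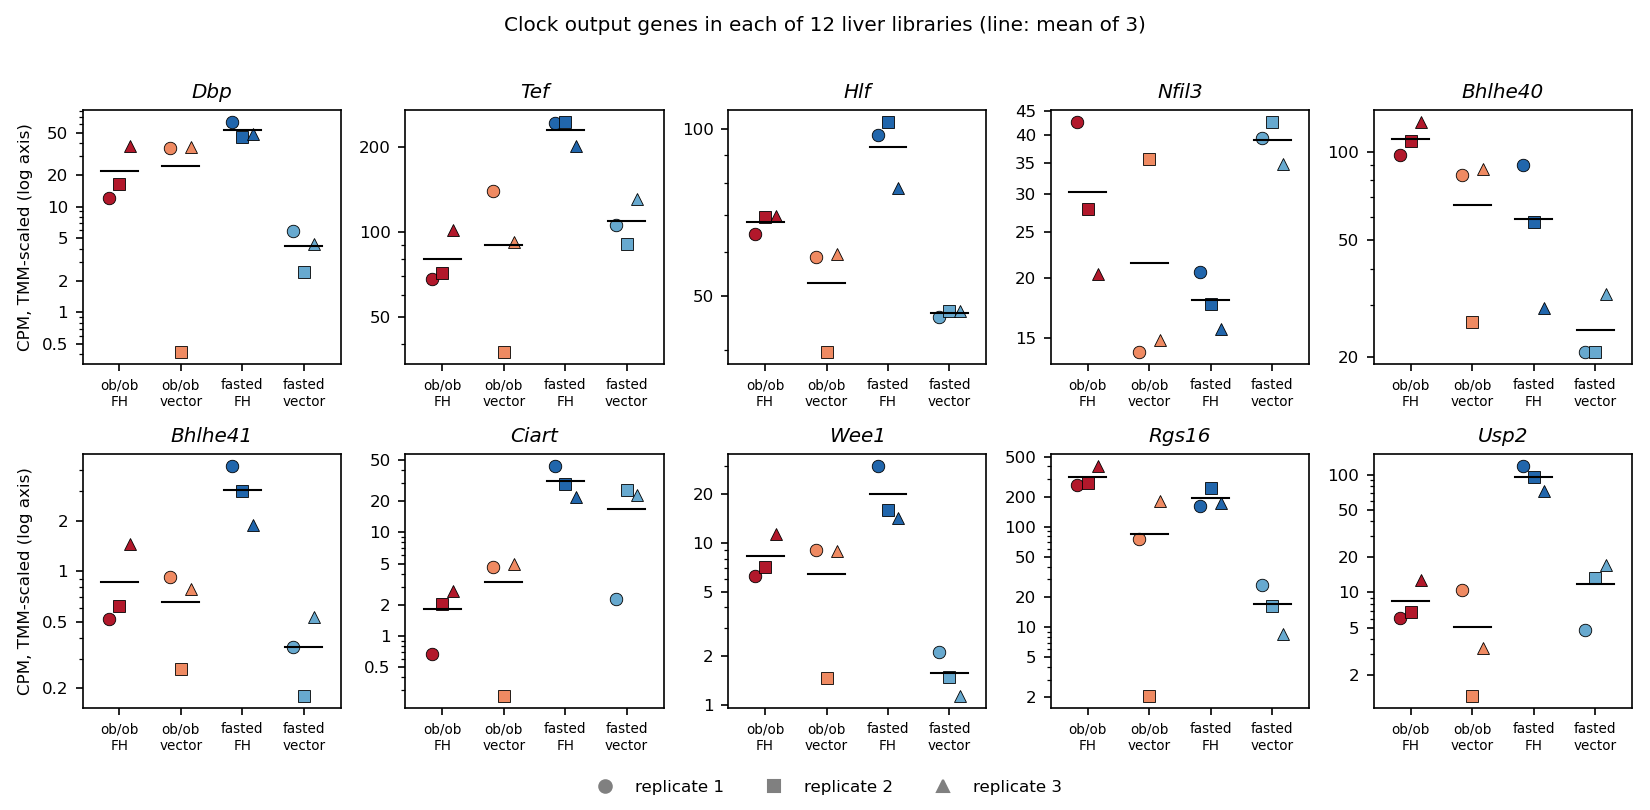
CPM on a log axis of each of the 10 genes in each of the 12 libraries (symbols by replicate, line at the mean of 3), with groups side by side in the order ob/ob FH, ob/ob vector, fasted FH and fasted vector. Dbp lies at 45.8 to 63.2 CPM in fasted FH and 2.39 to 5.82 CPM in fasted vector, and 1 ob/ob vector library, replicate 2, sits at 0.420 CPM.

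In fasted livers most of the output genes were higher with FH. Of the 10 genes, 8 rose and 1, Nfil3, fell, 9 called in all at an adjusted p under 0.05 (edgeR quasi-likelihood test, Benjamini-Hochberg over 15228 genes). The background is high: 55.0% of all genes tested were called in this comparison, 27.4% higher and 27.6% lower. The median log2 fold change was 2.13 over the 10 genes and -0.04 over all genes.

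The PAR-bZIP activators moved together and their competitor moved the other way in fasted livers. Dbp, the activator known for the steepest daily swing, stood at 63.2, 45.8 and 48.0 CPM in fasted FH, against 5.82, 2.39 and 4.39 CPM in fasted vector. All 3 FH libraries lay far above all 3 vector libraries, and the fitted difference was 12.6-fold (log2 3.65, SE 0.89, edgeR adjusted p = 0.00358). Tef, a close relative of Dbp, read 243, 245 and 201 CPM in fasted FH and 106, 90.7 and 131 CPM in fasted vector. It rose 2.11-fold (log2 1.08, SE 0.34, edgeR adjusted p = 0.0149), with every FH library above every vector library, and lost the call without fasted vector replicate 1 (adjusted p = 0.0516) or 2 (adjusted p = 0.0536). Hlf, the third activator, read 97.7, 103 and 78.2 CPM in fasted FH and 45.8, 47.0 and 47.1 CPM in fasted vector. The vector libraries hardly differed among themselves, and Hlf rose 1.99-fold (log2 0.99, SE 0.15, edgeR adjusted p = 1.34e-04). Nfil3, the repressor, read 20.7, 17.7 and 15.7 CPM in fasted FH and 39.5, 42.6 and 34.8 CPM in fasted vector. Here every FH library was below every vector library, and Nfil3 was 2.17-fold lower (log2 -1.12, SE 0.33, edgeR adjusted p = 0.0103).

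Set against each other within a library, activator and repressor counts give a ratio that no scaling of the library can move. The log2 ratio of Dbp to Nfil3 counts was 1.61, 1.38 and 1.62 in fasted FH, against -2.76, -4.15 and -2.99 in fasted vector. Dbp outnumbered Nfil3 in each fasted FH library and was outnumbered by it in each fasted vector library; counts were not divided by gene length, so the size of the ratio compares libraries and not the genes.

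Both DEC repressors, which bind E-boxes and oppose BMAL1 and CLOCK, were called higher in fasted FH. Bhlhe40 (DEC1) read 90.0, 57.8 and 29.4 CPM in fasted FH and 20.8, 20.9 and 32.8 CPM in fasted vector. The groups overlapped, since the third FH library was below the third vector library, and the fitted rise was 2.37-fold (log2 1.25, SE 0.42, edgeR adjusted p = 0.0216). The Bhlhe40 call was lost without fasted FH replicate 1 (log2 0.82, edgeR adjusted p = 0.125) and without fasted vector replicate 1 (adjusted p = 0.0820) or 2 (adjusted p = 0.0687). Bhlhe41 (DEC2) was scarce, at 4.24, 3.01 and 1.88 CPM in fasted FH and 0.355, 0.180 and 0.532 CPM in fasted vector, the fasted vector libraries holding 5, 3 and 8 counts. It was 8.46-fold higher (log2 3.08, SE 0.58, edgeR adjusted p = 5.53e-04). Bhlhe41 was above the minimum of the filter on low counts in 3 of 3 fasted FH libraries, and in 1, 2 and 1 libraries of ob/ob FH, ob/ob vector and fasted vector.

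Among the rhythmic effectors, 3 of 4 rose in fasted FH. Wee1, a kinase that holds cells back from mitosis, read 29.9, 15.9 and 14.3 CPM in fasted FH and 2.13, 1.50 and 1.13 CPM in fasted vector. The lowest FH library was well above the highest vector library, and the rise was 12.6-fold (log2 3.66, SE 0.56, edgeR adjusted p = 1.26e-04). Rgs16, which speeds the turn-off of G protein signals, read 161, 244 and 172 CPM in fasted FH and 26.2, 16.2 and 8.64 CPM in fasted vector. Rgs16 rose 11.3-fold without overlap (log2 3.50, SE 0.91, edgeR adjusted p = 0.00528). Usp2, a deubiquitinase, read 118, 95.8 and 71.9 CPM in fasted FH and 4.75, 13.3 and 17.1 CPM in fasted vector. It rose 8.10-fold without overlap (log2 3.02, SE 0.55, edgeR adjusted p = 4.74e-04).

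Ciart (CHRONO), a repressor of BMAL1 and CLOCK whose window held the 3 E-boxes, was the member that did not pass in fasted livers. It read 43.6, 29.0 and 21.8 CPM in fasted FH and 2.27, 25.3 and 22.9 CPM in fasted vector. Only the first vector library was low, the others fell among the FH libraries, and the difference was log2 0.89 (SE 0.70, edgeR adjusted p = 0.293). The groups did not overlap for 8 of the 10 genes, Bhlhe40 and Ciart being the exceptions, against 61.0% of all genes. On unscaled library totals the median of all genes in this comparison moved to -0.71 from -0.04 under TMM, and 6 of the 10 genes were then called, 5 higher and 1 lower, beside 62.9% of all genes (1087 higher and 8496 lower). Tef (log2 0.39, adjusted p = 0.340), Hlf (log2 0.32, adjusted p = 0.0980) and Bhlhe40 (log2 0.57, adjusted p = 0.264) lost the call in that edgeR fit.

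**Figure D2:**
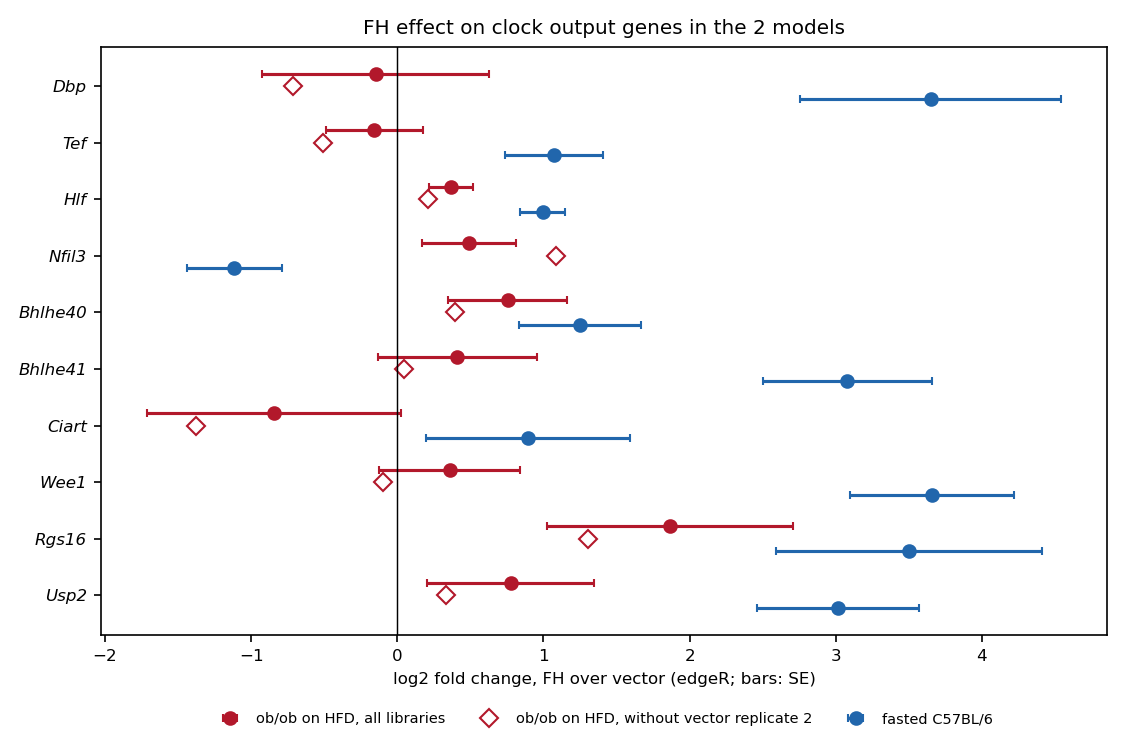
Log2 fold change of FH over vector with its standard error for each of the 10 genes in ob/ob (red circles) and in fasted livers (blue circles), with open diamonds for ob/ob livers without vector replicate 2. With all libraries in the fit the 9 called values are all in fasted livers, and the ob/ob values from all libraries lie between -0.84 and 1.86.

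In ob/ob livers on high-fat diet none of the 10 genes was called between FH and vector by edgeR, beside 53.7% of all genes tested, 25.8% higher and 27.9% lower. Unadjusted p was under 0.05 for 2 of the 10 in edgeR and for 1 in DESeq2, which called 0 too. Of all 15228 genes, 9019 in edgeR and 8854 in DESeq2 had such a p. The members' log2 fold changes ran from -0.84 for Ciart to 1.86 for Rgs16, with a median of 0.39 beside -0.01 over all genes.

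The spread within the ob/ob vector group was wide, because replicate 2 differed from the other libraries of the group in all 10 genes. It stood apart beyond these genes too. Over the well-counted genes tested, chi-square per degree of freedom between 2 libraries measures how far they differ beyond sampling noise. It was 79.7 for replicates 1 and 2, 120 for 2 and 3, and 22.5 for 1 and 3. Pairs within the other groups gave 22.2 to 47.6. Dbp read 12.1, 16.3 and 37.0 CPM in ob/ob FH and 35.7, 0.420 and 36.7 CPM in ob/ob vector. The vector libraries 1 and 3 nearly coincided, while replicate 2 held 8 Dbp counts, which puts the mean of the other vector libraries 86.1 times higher. Rgs16 read 261, 270 and 404 CPM in ob/ob FH and 74.9, 2.05 and 180 CPM in ob/ob vector. Every FH library was above every vector library, yet replicate 2 was again the lowest, 62.2 times under the mean of the others, and the difference missed the threshold (log2 1.86, SE 0.84, edgeR adjusted p = 0.0764). Nfil3 was the mirror case, at 42.5, 27.9 and 20.4 CPM in ob/ob FH and 14.0, 35.7 and 14.8 CPM in ob/ob vector. Replicate 2 had 2.48 times the mean Nfil3 level of the other vector libraries, so the groups overlapped (log2 0.49, SE 0.32, edgeR adjusted p = 0.210).

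The remaining genes had the same low library. Across Ciart, Wee1, Usp2, Bhlhe41, Bhlhe40, Tef and Hlf, the mean of ob/ob vector replicates 1 and 3 was 18.3, 6.10, 5.27, 3.26, 3.24, 3.09 and 1.50 times the level of replicate 2. Tef read 68.2, 71.6 and 102 CPM in ob/ob FH and 139, 37.5 and 92.2 CPM in ob/ob vector, with the FH libraries inside the range of the vector libraries. Wee1 read 6.27, 7.13 and 11.4 CPM in ob/ob FH and 9.05, 1.47 and 8.90 CPM in ob/ob vector, again overlapping. Hlf read 64.8, 69.4 and 69.8 CPM in ob/ob FH and 59.0, 39.6 and 59.6 CPM in ob/ob vector. The Hlf groups did not overlap, but the difference was small (log2 0.37, SE 0.15, edgeR adjusted p = 0.0566).

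Bhlhe40 read 97.7, 109 and 127 CPM in ob/ob FH and 83.5, 26.4 and 87.5 CPM in ob/ob vector, without overlap (log2 0.76, SE 0.41, edgeR adjusted p = 0.132). With Hlf and Rgs16 it made 3 of 10 genes without overlap, beside 61.8% of all genes. Usp2 read 6.11, 6.87 and 12.6 CPM in ob/ob FH and 10.4, 1.31 and 3.40 CPM in ob/ob vector, and Ciart read 0.673, 2.03 and 2.72 CPM in ob/ob FH and 4.64, 0.263 and 4.97 CPM in ob/ob vector. Bhlhe41 stayed between 0.518 and 1.46 CPM in ob/ob FH and between 0.263 and 0.928 CPM in ob/ob vector, a matter of 5 to 31 counts a library. For these 3 genes the groups overlapped.

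Leaving out ob/ob vector replicate 2 changed which genes were called in ob/ob livers. Of the 10 genes 2 were then called, beside 49.9% of all genes. Nfil3 was higher with FH (log2 1.08, edgeR adjusted p = 0.00141), as was Rgs16 (log2 1.30, edgeR adjusted p = 0.0103). Dbp was at log2 -0.71 (edgeR adjusted p = 0.0972) and Tef at -0.51 (edgeR adjusted p = 0.0508) without that library, both short of the threshold. Leaving out ob/ob vector replicate 1 or replicate 3 instead also gave 2 calls each, beside 47.0% and 50.6% of all genes. They were Hlf and Usp2 in the first case (log2 0.47 and 1.87), Hlf and Rgs16 in the second (log2 0.48 and 3.04). On library totals, which shift the median of all genes to -0.63 in this comparison, Hlf (-0.25), Nfil3 (-0.15), Bhlhe41 (-0.20) and Wee1 (-0.25) turned negative on the log2 scale, none of them called in either scaling.

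**Figure D3:**
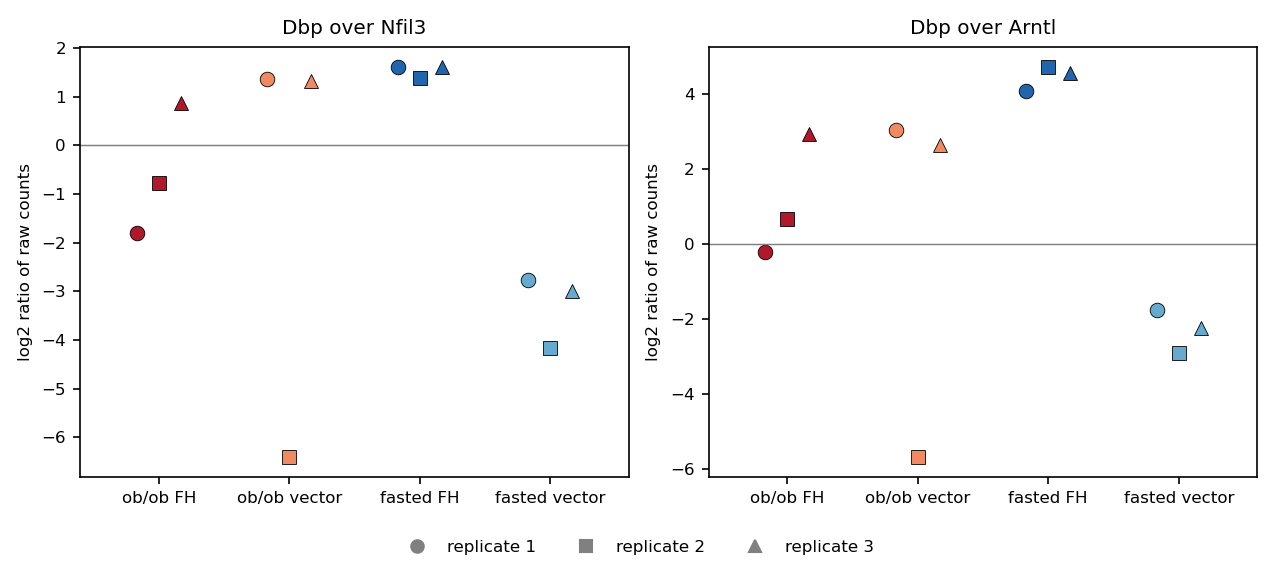
Log2 ratio of Dbp to Nfil3 counts and of Dbp to Arntl counts in each of the 12 libraries, grouped from ob/ob FH to fasted vector. Fasted FH lies above 0 and fasted vector below 0 for both ratios, and ob/ob vector replicate 2 is the lowest library in each, at -6.41 and -5.70.

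Within ob/ob livers the ratios separated libraries more than groups. The log2 ratio of Dbp to Nfil3 counts was -1.81, -0.77 and 0.86 in ob/ob FH and 1.35, -6.41 and 1.31 in ob/ob vector. Replicate 2 of ob/ob vector was the lowest of all 12 libraries, while replicates 1 and 3 were near the fasted FH values. Arntl, the gene of BMAL1, peaks opposite to Dbp in a running liver clock, and it read 14.2, 10.4 and 4.93 CPM in ob/ob FH and 4.35, 21.9 and 5.97 CPM in ob/ob vector. In fasted livers Arntl read 3.75, 1.74 and 2.04 CPM with FH and 19.9, 18.1 and 20.9 CPM with vector. The log2 ratio of Dbp to Arntl counts was accordingly 4.08, 4.72 and 4.56 in fasted FH and -1.78, -2.92 and -2.25 in fasted vector, against -0.23, 0.66 and 2.91 in ob/ob FH and 3.04, -5.70 and 2.62 in ob/ob vector. The hour at which each liver was taken is not in the labels, and its part in these values was not tested.

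The difference between the FH effects in the models was tested directly, as the ob/ob effect minus the fasted effect. In the ob/ob effect FH and sex markers cannot be told apart. Of the 10 genes, 2 were called, 1 higher and 1 lower, beside 8.43% of all genes, 4.77% higher and 3.66% lower. Unadjusted edgeR p was under 0.05 for 7 of the 10, beside 3795 of all 15228 genes. Wee1 had the smaller FH effect in ob/ob livers (log2 0.36 in ob/ob and 3.66 in fasted, difference -3.30, SE 0.74, edgeR adjusted p = 0.0166). Nfil3 had the higher one in ob/ob livers (log2 0.49 in ob/ob and -1.12 in fasted, difference 1.61, SE 0.46, edgeR adjusted p = 0.0454). Over 12 edgeR fits that left out 1 library each, the Wee1 difference lost its call without fasted vector replicate 3 (adjusted p = 0.0524). The Nfil3 difference lost it in 10 of the 12, all but those without ob/ob FH replicate 3 or ob/ob vector replicate 2, with log2 values of 1.33 to 2.19 and an edgeR adjusted p of up to 0.0963.

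The other differences missed the threshold, with 7 of 8 between -3.80 and -0.63 on the log2 scale and Bhlhe40 at -0.49. Dbp was at -3.80 (SE 1.17, edgeR adjusted p = 0.0611), Bhlhe41 at -2.67 (SE 0.80, edgeR adjusted p = 0.0560) and Usp2 at -2.24 (SE 0.78, edgeR adjusted p = 0.0918). Without ob/ob vector replicate 2, 8 of the 10 differences were called by edgeR, 7 lower in ob/ob and Nfil3 higher, beside 10.3% of all genes. In that edgeR fit these included Dbp at -4.38 (adjusted p = 2.90e-04), Wee1 at -3.77 (adjusted p = 4.03e-04), Tef at -1.60 (adjusted p = 0.00271), Usp2 at -2.70 (adjusted p = 0.0121) and Nfil3 at 2.19 (adjusted p = 8.76e-04), and the 2 not called were Bhlhe40 and Ciart. Without fasted vector replicate 3, 0 of the 10 were called by edgeR, beside 4.86% of all genes. In that fit 7 had an unadjusted p under 0.05, beside 3540 of all 16009 genes. Without ob/ob FH replicate 3, 3 were called, beside 4.21% of all genes. Without each of the 9 remaining libraries 1 was called, beside 3.76% to 7.80% of all genes.

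**Figure D4:**
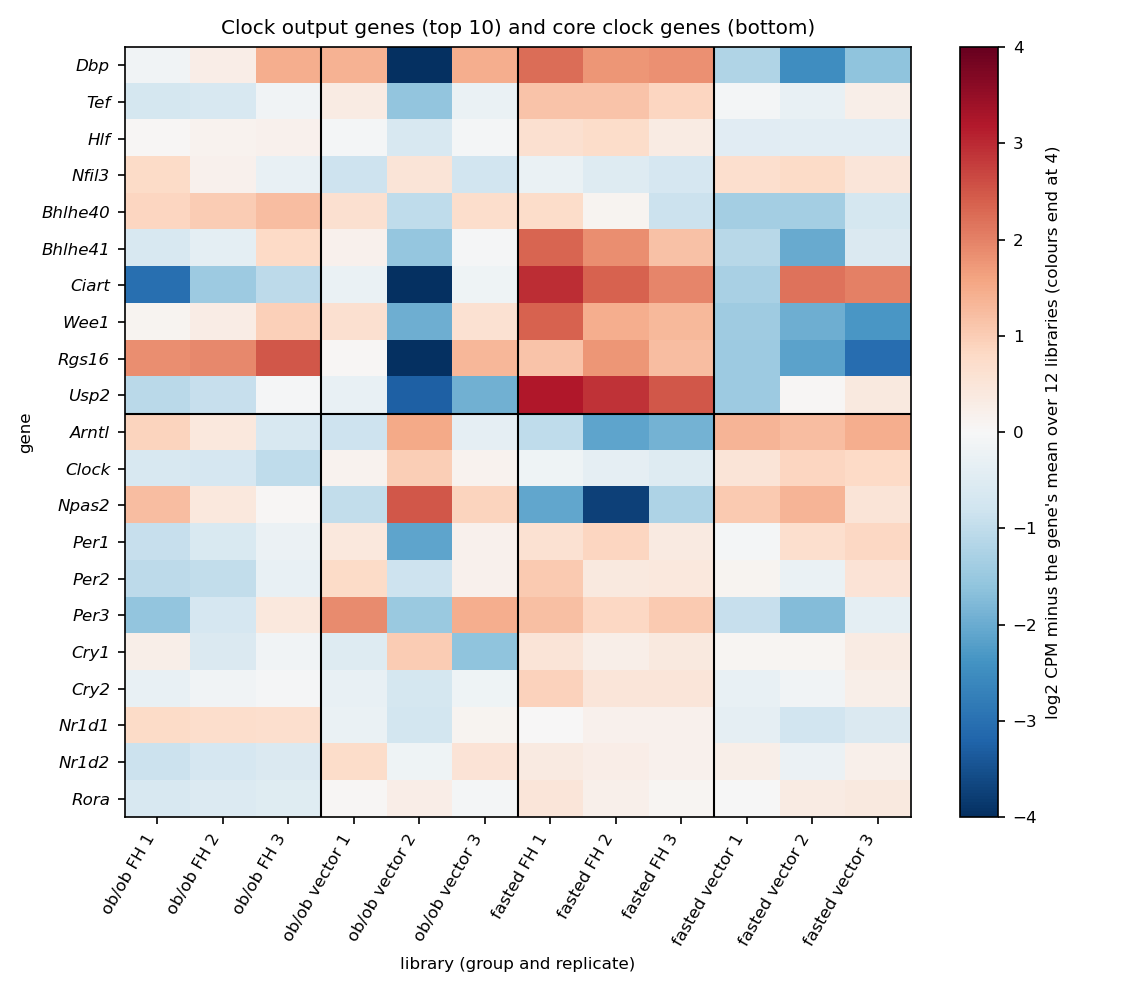
Log2 CPM of the 10 output genes and of core clock genes, each as the deviation from its mean over the 12 libraries (the colour scale ends at 4 either way), with libraries in columns from ob/ob FH to fasted vector. All 3 fasted FH columns are above the mean for 8 of the 10 output genes and below it for Nfil3 and Arntl, and ob/ob vector replicate 2 is below the mean for the 9 output genes other than Nfil3.

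Between the models, FH libraries were compared first. Of the 10 genes, 6 were lower in ob/ob FH than in fasted FH and 0 higher, beside 40.2% of all genes called, 18.6% higher and 21.6% lower. On library totals, which move the median of all genes to 0.17 from -0.09, 4 were lower and 2 higher, beside 36.2% of all genes: Nfil3 (log2 0.99, edgeR adjusted p = 0.0241) and Bhlhe40 (log2 1.17, edgeR adjusted p = 0.0461) were then called higher, and Hlf and Wee1 were not called. Usp2 showed 11.1-fold less (log2 -3.48, SE 0.56, edgeR adjusted p = 4.16e-04), with the ob/ob FH libraries at 6.11 to 12.6 CPM and the fasted FH libraries at 71.9 to 118 CPM. Ciart showed 17.2-fold less (log2 -4.10, SE 0.83, edgeR adjusted p = 0.00184), at 0.673 to 2.72 CPM in ob/ob FH and 21.8 to 43.6 CPM in fasted FH. Tef (log2 -1.51, adjusted p = 0.00339), Bhlhe41 (-1.78, adjusted p = 0.0122), Hlf (-0.45, adjusted p = 0.0302) and Wee1 (-1.27, adjusted p = 0.0467) were lower by smaller amounts in the same edgeR fit. Leaving out 1 library of these groups at a time, Hlf and Wee1 kept the call in 1 of 6 fits, the one without fasted FH replicate 3, and Bhlhe41 lost it without ob/ob FH replicate 1 or 2 or fasted FH replicate 1. Dbp (log2 -1.26), Nfil3 (0.75), Bhlhe40 (0.91) and Rgs16 (0.70) did not pass, although 9 of the 10 genes, all but Nfil3, had groups that did not overlap, beside 56.7% of all genes. With only the FH groups in the fit all 10 were called, 3 higher and 7 lower, beside 51.3% of all genes. The ob/ob FH group is the one with Xist and without Y-linked counts, so model, feeding and sex markers cannot be told apart here.

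In vector libraries, 2 of the 10 genes were called, both higher in ob/ob than in fasted livers, beside 17.5% of all genes, 9.36% higher and 8.18% lower. Wee1 averaged 6.47 ± 4.33 CPM in ob/ob vector and 1.59 ± 0.505 CPM in fasted vector (SD, n = 3 each; log2 2.03, SE 0.57, edgeR adjusted p = 0.0257). Bhlhe40 averaged 65.8 ± 34.2 CPM in ob/ob vector and 24.8 ± 6.89 CPM in fasted vector (SD, n = 3 each; log2 1.41, SE 0.42, edgeR adjusted p = 0.0341). The Wee1 call was lost without ob/ob vector replicate 1 or 3 or fasted vector replicate 2 or 3 (edgeR adjusted p of 0.0826 or more), and the Bhlhe40 call without any 1 library of these groups other than ob/ob vector replicate 2 (edgeR adjusted p up to 0.112). For none of the 10 genes were the groups apart, beside 29.6% of all genes. Without that library 5 genes were called by edgeR, beside 21.4% of all genes: Dbp (log2 3.12, adjusted p = 3.04e-05), Rgs16 (2.91, adjusted p = 5.60e-05), Wee1 (2.51, adjusted p = 1.37e-04) and Bhlhe40 (1.79, adjusted p = 6.85e-04) higher in ob/ob, and Nfil3 (-1.43, adjusted p = 4.67e-04) lower. Ciart and Usp2 were at -2.36 and -1.23 in the fit of all libraries (edgeR adjusted p = 0.0513 and 0.158).

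**Figure D5:**
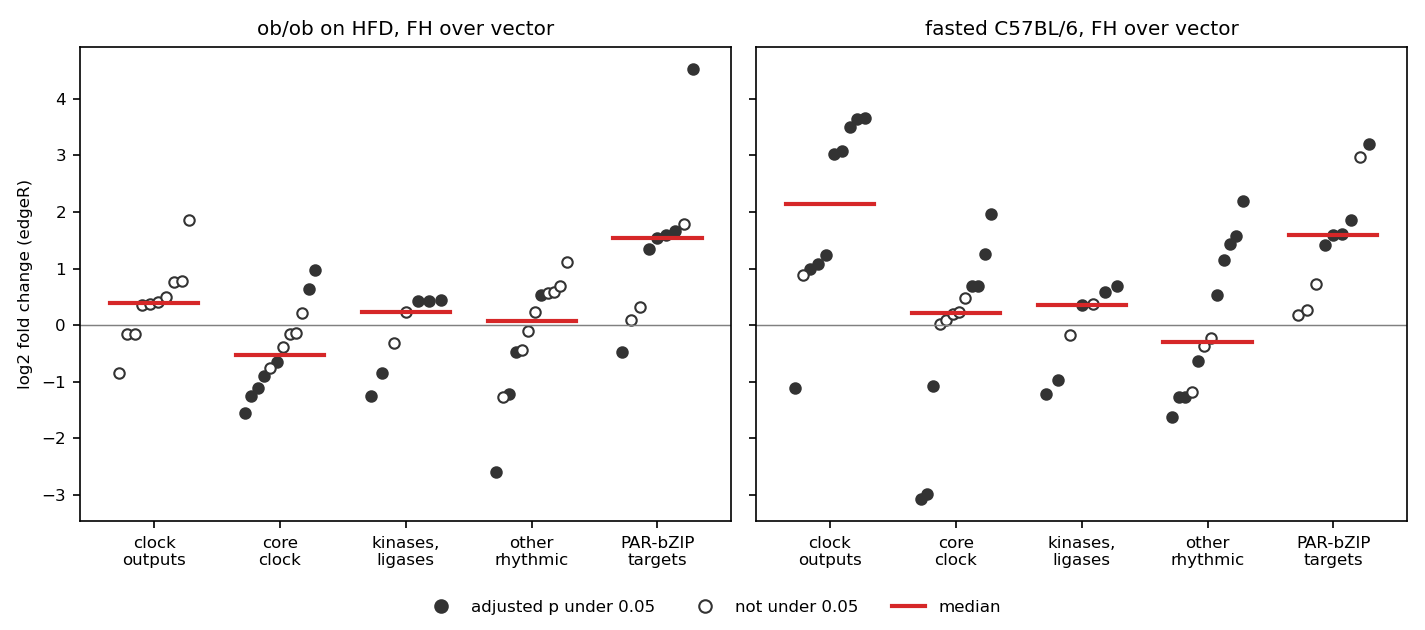
Log2 fold changes of FH over vector for the genes of each clock list in ob/ob and in fasted livers, 1 point a gene, filled where the edgeR adjusted p is under 0.05, with a red line at the median of the list. The median of the 10 output genes is 0.39 in ob/ob and 2.13 in fasted livers, and that of the 12 core clock genes is -0.52 in ob/ob and 0.21 in fasted livers.

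The share of core clock genes called was near that of all genes in both models. In ob/ob livers 7 of 12 were called between FH and vector, 2 higher and 5 lower, beside 53.7% of all genes, and in fasted livers 7 of 12, 4 higher and 3 lower, beside 55.0% of all genes. On library totals the calls were 0 higher and 5 lower in ob/ob livers and 1 higher and 4 lower in fasted livers. The share of all genes was then 60.1% in ob/ob and 62.9% in fasted livers. Arntl was 7.90-fold lower with FH in fasted livers (log2 -2.98, SE 0.56, edgeR adjusted p = 5.87e-04) and at log2 -0.13 in ob/ob livers (edgeR adjusted p = 0.843), and its difference between the models was called (2.85, SE 0.75, edgeR adjusted p = 0.0334). Clock, the partner of BMAL1, fell in both, by 1.25 in ob/ob and by 1.07 in fasted livers on the log2 scale (edgeR adjusted p = 3.02e-04 and 8.82e-04). Nr1d1, the gene of REV-ERB alpha, read 99.0, 95.5 and 93.4 CPM in ob/ob FH and 48.4, 35.2 and 63.1 CPM in ob/ob vector. It rose in ob/ob livers (log2 0.97, edgeR adjusted p = 4.15e-04) and in fasted livers (log2 0.69, edgeR adjusted p = 0.00445), and on library totals it was at 0.35 in ob/ob and 0.02 in fasted livers, not called in either.

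The period gene Per2 was lower with FH in ob/ob livers (log2 -0.91, edgeR adjusted p = 0.0388), where it read 8.03, 8.27 and 13.4 CPM in ob/ob FH and 28.0, 9.36 and 18.5 CPM in ob/ob vector. In fasted livers it was at log2 0.49 (edgeR adjusted p = 0.236). In ob/ob livers Nr1d2 (log2 -1.12, edgeR adjusted p = 4.49e-04) and Rora (log2 -0.65, edgeR adjusted p = 0.00214) fell. Of 7 clock kinases and ubiquitin ligases, 5 were called in each model, 3 higher and 2 lower, beside 53.7% of all genes in ob/ob and 55.0% in fasted livers. On library totals 4 were called in ob/ob and 3 in fasted livers, all lower, beside 60.1% of all genes in ob/ob and 62.9% in fasted livers. The kinase Csnk1e, which acts on PER proteins, fell in both (log2 -0.84 in ob/ob and -1.22 in fasted livers). The kinase Csnk1d rose under TMM scaling (0.45 in ob/ob and 0.58 in fasted livers), but was not called and changed sign on library totals (-0.18 in ob/ob and -0.094 in fasted livers). Fbxw11, a ligase subunit for PER proteins, rose under TMM scaling (0.43 in ob/ob and 0.70 in fasted livers) and was not called on library totals (-0.19 in ob/ob and 0.025 in fasted livers).

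Several genes that DBP, TEF and HLF are known to drive rose with FH. Of 9 such target genes, 6 were called in ob/ob livers, 5 higher and 1 lower, beside 53.7% of all genes (25.8% higher), with a median log2 fold change of 1.54 beside -0.01 for all genes, although none of the PAR-bZIP genes passed there. In fasted livers 5 of 9 were called, all higher, beside 55.0% of all genes (27.4% higher), with a median of 1.59 beside -0.04 for all genes. On library totals 4 were higher and 1 lower in ob/ob livers, beside 60.1% of all genes (1039 higher and 8119 lower). In fasted livers 4 were higher on those totals, beside 62.9% of all genes (1087 higher and 8496 lower). Por, the reductase that feeds electrons to cytochrome P450 enzymes, read 248, 243 and 263 CPM in ob/ob FH and 98.9, 56.8 and 92.7 CPM in ob/ob vector. In fasted livers Por read 1403, 1288 and 1490 CPM with FH and 295, 492 and 367 CPM with vector. It rose in both without overlap (log2 1.60 in ob/ob and 1.86 in fasted livers, edgeR adjusted p = 4.82e-05 and 1.65e-05).

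Among the target P450 genes, Cyp2a5 rose 9.14-fold in fasted livers (log2 3.19, SE 0.34, edgeR adjusted p = 9.08e-06) and less in ob/ob livers (log2 1.34, SE 0.32, edgeR adjusted p = 0.00337), a difference of -1.86 that was called (SE 0.45, edgeR adjusted p = 0.0238). On library totals Cyp2a5 in ob/ob livers was at log2 0.72 and lost the call (edgeR adjusted p = 0.0642). Cyp2b10 read 35.5, 15.3 and 9.53 CPM in ob/ob FH and 1.63, 0.263 and 0.733 CPM in ob/ob vector. It rose there (log2 4.53, SE 0.57, edgeR adjusted p = 2.73e-05) and was at log2 0.72 in fasted livers (edgeR adjusted p = 0.276), a called difference of 3.81 (SE 0.79, edgeR adjusted p = 0.0117). Cyp2c37 and Cyp2c50 rose in both, by log2 1.67 and 1.54 in ob/ob and by 1.41 and 1.61 in fasted livers. These P450 genes have near-identical relatives, among which the counting can split reads. In ob/ob livers FH and sex markers cannot be told apart, which holds for these rises too.

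Other rhythmic liver outputs split by direction. In ob/ob livers 4 of 12 were called, 1 higher and 3 lower, beside 53.7% of all genes, and in fasted livers 9 of 12, 5 higher and 4 lower, beside 55.0% of all genes. The FH effect differed between the models for 7 of 12, beside 8.43% of all genes. On library totals the calls were 0 higher and 6 lower in ob/ob livers and 3 higher and 6 lower in fasted livers. Of all genes 60.1% in ob/ob and 62.9% in fasted livers were called on those totals. Gys2, the liver glycogen synthase, rose in fasted livers (log2 2.19), as did Tspan4 (1.44) and Coq10b (1.57), while Insig2, which holds back cholesterol synthesis, fell (-1.28). In ob/ob livers Elovl3, a fatty acid elongase, fell (log2 -2.60, edgeR adjusted p = 0.00512). It read 17.5 to 55.1 CPM in ob/ob FH and 55.5 to 427 CPM in ob/ob vector, where the median was 73.1 CPM. Nampt (-0.47, edgeR adjusted p = 0.0241), the enzyme of NAD salvage, and Lonrf3 (-1.23, edgeR adjusted p = 0.0437) also fell in ob/ob livers. Tspan4 rose there too under TMM scaling (log2 0.54, edgeR adjusted p = 0.00814), but was at -0.082 and not called on library totals.

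Markers of other cell types differed too. The background was again high: 53.7% of all genes were called with FH in ob/ob livers (25.8% higher, 27.9% lower). In fasted livers it was 55.0% (27.4% higher, 27.6% lower). Summed sinusoidal endothelium markers were 187 to 237 CPM in ob/ob FH and 161 to 205 CPM in ob/ob vector, and 95.0 to 109 CPM in fasted FH and 230 to 294 CPM in fasted vector. Of these 6 markers 3 were higher and 1 lower with FH in ob/ob livers, and 6 were lower in fasted livers. Macrophage markers summed to 456 to 657 CPM in ob/ob FH and 180 to 310 CPM in ob/ob vector, 6 of 6 higher, and to 156 to 179 CPM in fasted FH and 244 to 444 CPM in fasted vector, 5 of 6 lower. Stellate cell markers summed to 304 to 368 CPM in ob/ob FH and 237 to 253 CPM in ob/ob vector, 3 of 5 higher, and to 118 to 207 CPM in fasted FH and 235 to 298 CPM in fasted vector, 2 of 5 lower. Lymphocyte markers summed to at most 23.9 CPM in ob/ob FH and 29.1 to 37.4 CPM in ob/ob vector, 1 of 5 higher and 2 lower, and to 5.82 to 7.14 CPM in fasted FH and 19.0 to 29.5 CPM in fasted vector, 2 of 5 lower. Of 4 cholangiocyte markers 0 were called by edgeR in either model, and 0 had an unadjusted p under 0.05. Of all 15228 genes, 9019 in ob/ob and 9187 in fasted livers had such a p. Hepatocyte markers were called higher with FH for 5 of 6 in ob/ob and 6 of 6 in fasted livers under TMM scaling. On unscaled library totals mean Apoa1 was lower with FH in ob/ob livers (5209 against 6405 CPM). Mean Hnf4a was near equal in fasted livers (756 with FH, 761 with vector). All other means of the 6 markers were higher with FH on those totals, Apoa1 in fasted livers by little (10543 against 10103 CPM). The part of these marker differences in the clock gene values was not tested.

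Across the 12 libraries the 10 genes did not form 1 block, as a description in which the points share depth, scaling and group. Dbp and Wee1 were alike (Pearson r = 0.90 over 12 libraries, 0.96 over 11 without ob/ob vector replicate 2), as were Tef and Usp2 (0.92 and 0.90). Dbp and Nfil3 ran opposite (-0.77 and -0.86), while Dbp and Ciart were loosely related (0.47 and 0.10). Outside the members, the genes most like Dbp were Slc16a7, Fibp, Vnn1, Rrp36 and Pex11a (r = 0.92, 0.92, 0.92, 0.91 and 0.91 over 12 libraries). Over the 11 without ob/ob vector replicate 2 their r was 0.85, 0.91, 0.83, 0.82 and 0.80, and the ranking was not remade. The genes most like Nfil3 over 12 libraries were Clpx, Zfp36l1, Rfxank, Gfod2 and G6pc (r = 0.91, 0.91, 0.88, 0.87 and 0.87, and 0.91, 0.91, 0.88, 0.88 and 0.86 over the 11).

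Dbp overlaps Sphk2 on the opposite strand (GENCODE M21), which had 8150 counts over all libraries beside 5325 for Dbp, and no label says how the counting treated strand. Sphk2 was at log2 0.27 in fasted livers (edgeR adjusted p = 0.105), against 3.65 for Dbp. In ob/ob livers Sphk2 read 40.3 to 49.3 CPM with FH and 21.6 to 29.1 CPM with vector, while the Dbp groups overlapped. The part of Sphk2 reads in the Dbp counts was not tested. Ciart overlaps C920021L13Rik, with 470 counts beside 2547 for Ciart. Hlf and Nfil3 overlap no gene on the opposite strand, and for the remaining members the overlapping genes had 48 counts or fewer in all.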

How the data were processed

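The authors' deposited table holds raw counts per gene for 12 libraries, which were used as given. STAR 2.7.11a and build GRCm39 are named in the submitters' processing notes, and per the labels' protocols libraries came from total liver RNA and a stranded mRNA kit. The counter, its annotation and its use of strand are not named in the sources used here. Genes were kept by edgeR's filterByExpr (10 counts, 15 in total). All 12 libraries entered 1 edgeR 4.0.16 quasi-likelihood model of 4 groups (R 4.3.3, TMM scaling, 8 residual degrees of freedom), with Benjamini-Hochberg adjustment over the 15228 genes and a call under 0.05. SE belongs to the log2 fold change. Log2 CPM for correlations used a prior count of 0.5. In 5 comparisons FH was set against vector in ob/ob and in fasted livers, the ob/ob effect against the fasted one, and ob/ob against fasted livers within FH and within vector libraries.

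All 10 members are named whatever their p. From every other list up to 4 called genes with the smallest adjusted p per FH comparison are named, plus Arntl, Per2 and Nr1d1, except 2 genes that are not reported here. The members and lists were chosen with earlier results of these data known. Alternatives were DESeq2 size factors, library totals, the DESeq2 1.42.0 Wald test, no filter, a replicate block, only the groups compared, and leaving out each library. The steps were tested on simulated data. Total counts limit precision through counting error alone at low levels, as for Bhlhe41. No 2 libraries of a group were alike within sampling noise.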

Additional observations from a re-analysis of the deposited data

Results flagged for a closer look

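For 2 of the 10 genes the FH effect differed between the models by a direct edgeR test. The Nfil3 effect in ob/ob livers was 1.61 higher on the log2 scale than in fasted livers (SE 0.46, adjusted p = 0.0454), with overlapping groups in ob/ob livers and 3 of 3 fasted FH libraries below every fasted vector library. The Wee1 effect was -3.30 in the same terms (SE 0.74, adjusted p = 0.0166), again with overlapping groups in ob/ob livers and with 3 of 3 fasted FH libraries above every fasted vector library. Leaving out 1 library at a time, the Nfil3 difference lost its call in 10 of 12 edgeR fits. The Wee1 difference lost its call in 1 of them, without fasted vector replicate 3 (edgeR adjusted p = 0.0524). In the ob/ob part of both differences FH and sex markers cannot be told apart.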

How the results depend on the processing

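Over the 10 genes and 5 comparisons, 649 log2 fold changes were refitted: 535 kept direction and side of the threshold, 49 lost the call, 52 gained one and 13 changed sign, none of these 13 called. With no filter on low counts 5 members were called in ob/ob FH against vector, beside 31.0% of all genes, and 8 in the difference, beside 6.47%. In that setting 10 were called in ob/ob against fasted FH, beside 21.0%, and 7 in the vector libraries, beside 11.1%. With only the groups compared, 10 were called in FH libraries, beside 51.3% of all genes. In vector libraries 0 of 9 tested were then called, beside 8.71%, and 5 had an unadjusted edgeR p under 0.05, beside 3665 of all 14287 genes. The cause was not tested. Leaving out 1 library gave 0 to 2 members in ob/ob FH against vector (45.2% to 50.6% of all genes) and 0 to 8 in the difference (3.76% to 10.3%). It gave 3 to 6 members between FH groups (29.3% to 32.8%) and 0 to 5 between vector groups (10.4% to 21.4%). Sign changes in ob/ob FH against vector were, on library totals, Hlf -0.25, Nfil3 -0.15, Bhlhe41 -0.20 and Wee1 -0.25, and with 1 library left out Dbp (-0.79 to 0.30), Tef (-0.51 to 0.33), Bhlhe41 (-0.22 to 0.74) and Wee1 (-0.10 to 0.69); Tef between vector groups ran from -0.74 to 0.090. The replicate numbers gave no sign of pairing: same-number deviations correlated at -0.13 to 0.09 and different-number ones at -0.18 to 0.18. With so few libraries a group this cannot exclude pairing. Used as a block, the numbers left 9 members called with FH in fasted livers (52.3% of all genes) and 0 in ob/ob livers (51.8%). The difference then had 2 (6.59%), the FH groups 4 (36.6%) and the vector groups 2 (15.3%). Without the block these counts were 9, 0, 2, 6 and 2. With the block Dbp was at 0.17 in ob/ob livers. Over all genes the difference had 582 to 800 calls in 5 of the 12 fits without a library, against 1283, and the vector comparison 1669 to 1777 in 4 such fits and 1244 with only its groups, against 2671. On library totals all-gene calls in fasted livers were 1087 higher and 8496 lower, against 4174 and 4208, and in ob/ob livers 1039 and 8119, against 3932 and 4245. Depth limits Bhlhe41, at 3 to 8 counts in fasted vector.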
